A study of Mus musculus with 4 samples.

Results

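Macrophages take their identity from a small set of DNA-binding proteins, and 8 of these were followed here by gated cell type and library: Maf, Nr1h3, Klf4, Spi1, Cebpb, Batf2, Bhlhe40 and Hif1a. They were taken by symbol from the feature lists of both gene matrices, which hold 32285 mouse genes, and each symbol matched 1 row. The data came from CITE-seq, which counts transcripts and bound antibodies cell by cell, on mouse heart without the atria. Both libraries came from C57BL6J mice, and each pooled 4 hearts. The control animals received a rat IgG isotype antibody and the others an agonist antibody against CD40, an activating receptor of B cells, dendritic cells and macrophages. Dose, time after injection, age and sex are not given in the sources used here. The sample labels name a sort for CD45+ cells without the DNA dye DAPI, the series text names DRAQ5 in place of CD45, and the gate could not be settled. With 1 library a group there was no replicate and no test across conditions. All intervals are 95% intervals that cover counting error only, and the treatment and the 2 preparations cannot be told apart.

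PU.1, the product of Spi1, sets up the myeloid lineage, and C/EBPβ, the product of Cebpb, acts with it in monocytes, neutrophils and macrophages. The product of Maf, c-Maf, helps keep macrophages in their mature, tissue-resident state and goes with the perivascular type that carries scavenger receptors. LXRα, the product of Nr1h3, is a sterol sensor that turns on cholesterol export. The remaining members respond to the surroundings: KLF4 in monocyte differentiation and early responses to stress, BATF2 in interferon responses, BHLHE40 in cytokine production and proliferation, and HIF-1α in the response to low oxygen and in glycolysis.

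Promoter windows are shown first for the 3 members called different between the libraries in macrophages that have one in the RefSeq table of build GRCm38.p6. In all, 4 of the 8 members matched that table (Nr1h3, Klf4, Cebpb and Hif1a). Each run is the 250 bases before the annotated start, read 5′ to 3′ on the gene's strand. Capitals mark matches to the hypoxia element ACGTG or the E-box CACGTG, which contains it.
Klf4: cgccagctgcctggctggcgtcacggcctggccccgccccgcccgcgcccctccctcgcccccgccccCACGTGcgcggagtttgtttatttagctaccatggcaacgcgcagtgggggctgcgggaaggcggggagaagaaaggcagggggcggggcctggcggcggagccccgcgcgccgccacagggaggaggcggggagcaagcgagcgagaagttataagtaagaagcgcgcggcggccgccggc
Hif1a: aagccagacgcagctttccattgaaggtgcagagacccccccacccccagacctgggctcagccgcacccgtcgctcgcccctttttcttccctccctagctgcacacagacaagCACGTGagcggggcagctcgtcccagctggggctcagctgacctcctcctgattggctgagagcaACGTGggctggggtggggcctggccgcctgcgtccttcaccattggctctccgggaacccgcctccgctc
Nr1h3: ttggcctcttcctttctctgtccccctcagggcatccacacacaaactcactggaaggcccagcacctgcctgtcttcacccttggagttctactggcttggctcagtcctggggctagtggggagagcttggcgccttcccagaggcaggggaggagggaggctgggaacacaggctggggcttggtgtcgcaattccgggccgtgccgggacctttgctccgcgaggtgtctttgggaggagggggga
The Klf4 window lies at chr4:55532476-55532725 on the minus strand, the Hif1a window at chr12:73907617-73907866 on the plus strand, and this Nr1h3 window, of the first of 2 starts, at chr2:91195117-91195366 on the minus strand. The Hif1a and Nr1h3 windows lie inside the RefSeq spans of their genes, chr12:73901324-73947554 and chr2:91184061-91202829. They therefore precede internal starts and not the outer end of the gene. Both strands were searched for 6 motifs: GAS (TTCNNNGAA), the ISRE core (GAAANNGAA), ACGTG, C/EBP (TTGCNNAA), CACGTG and the PU.1 core (GAGGAAG). The Klf4 window held 1 E-box, 182 bases before the start. The Hif1a window held 1 E-box, 135 bases before the start, and a further ACGTG 70 bases before it. Among 32851 windows of the same length, ACGTG was in 16.6%, CACGTG in 6.02%, GAS in 7.02%, the ISRE core in 7.13%, C/EBP in 9.56% and the PU.1 core in 10.6%. A match is a run of letters and not a measured binding site. None of the 6 motifs was matched in the Nr1h3 and Cebpb windows, which says only that those letters are not there.

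The files held 4908 isotype and 7087 anti-CD40 barcodes, of which 2558 and 4278 were kept (22687435 and 47485251 UMIs, medians of 5446 and 8284.5 UMIs per cell). The libraries shared 13 barcodes, 6 of them among kept cells. Cells were gated by how many genes of a marker list they held. Macrophage-gated cells had at least 5 of C1qa, C1qb, C1qc, Csf1r, Adgre1, Cd68, Fcgr1 and Mertk and passed no other gate. They numbered 591 in the isotype library (4920355 UMIs, median 7205 per cell) and 2021 in the anti-CD40 library (25184768 UMIs, median 10825). A gate is a range of a score: 127 isotype and 307 anti-CD40 macrophage-gated cells held exactly 5 of the markers. Among cells that passed no gate, 105 and 226 held 4. The 8 macrophage markers summed to 15069.2 UMIs per 1000000 gene UMIs of the class (CPM) in the isotype class and 16153.9 in the anti-CD40 class. Monocyte markers were at a median of 0 UMIs per 10000 in isotype macrophages and 2.02 in anti-CD40 macrophages, neutrophil markers at 0 and 2.37, and B cell markers at 4.57 and 1.72. Among the macrophages at or under the class median for B cell and neutrophil markers, 256 isotype and 1050 anti-CD40 cells, the members called were 3 higher and 2 lower, as in all macrophages. Endothelial cells and fibroblasts, which do not carry CD45, were present as 42 and 37 isotype cells and 72 and 50 anti-CD40 cells.

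In macrophages the 8 factors moved in different directions. Maf and Klf4 were lower in the anti-CD40 library, Nr1h3, Batf2 and Hif1a were higher, and Spi1, Cebpb and Bhlhe40 were within 1.5-fold. A call needed a 1.5-fold difference after 10 CPM was added to both libraries, in genes with at least 30 UMIs. By that rule 3 of 8 members were called higher, beside 5.32% of the 11759 genes measured, and 2 of 8 lower, beside 9.13%. The members' median log2 ratio was 0.15, and that of all genes -0.10. TMM scaling raised the latter by 0.15 and turned the background to 10% higher and 4.75% lower, while the members' counts remained 3 and 2.

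**Figure D1:**
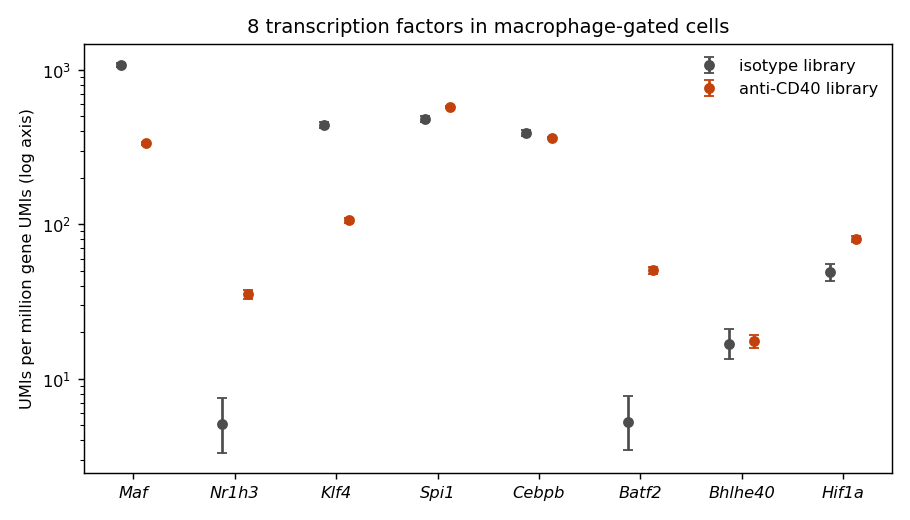
Level of each factor in macrophage-gated cells, in CPM on a log axis, with the isotype library in grey and the anti-CD40 library in orange; bars are 95% counting intervals. Maf and Klf4 sit lower in the anti-CD40 library and Nr1h3, Batf2 and Hif1a higher, while heights of different genes are not comparable because transcripts differ in capture.

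The lineage factors Spi1 and Cebpb, at chr2:91082374-91115759 and chr2:167688915-167690432 of GRCm38.p6, were measured deeply, from 2354 and 14523 UMIs for Spi1 and 1914 and 9108 UMIs for Cebpb. Spi1 was at 478.4 CPM (459.3 to 498.1) in isotype macrophages and 576.7 CPM (567.3 to 586.1) in anti-CD40 macrophages, a ratio of 1.21 (1.15 to 1.26). The intervals do not overlap, and the difference stayed under the 1.5-fold rule in all 13 alternatives tried. Cebpb was at 389 CPM (371.8 to 406.8) and 361.6 CPM (354.3 to 369.2), a ratio of 0.930 (0.885 to 0.977). That small difference changed sign under both other scalings, with log2 ratios of 0.18 and 0.18 against -0.10, so no direction is given for it.

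Maf, at chr8:115703253-115706894, was lower in the anti-CD40 library but still widely detected. It was at 1068.2 CPM (1039.5 to 1097.5) in isotype macrophages and 334.6 CPM (327.5 to 341.8) in anti-CD40 macrophages, 3.19-fold lower (3.08 to 3.31). Per cell, the median fell from 9.76 to 2.65 Maf UMIs per 10000 UMIs, and the 90th percentile of the anti-CD40 cells, 8.92, was under the isotype median. Maf stayed detectable in most anti-CD40 macrophages: a Maf UMI was seen in 527 of 591 isotype cells (89.2%) and 1598 of 2021 anti-CD40 cells (79.1%). With every cell thinned to 1000 UMIs, and 9 and 12 shallower cells left out, the shares were 59.3% (55.2 to 63.3) and 27.6% (25.7 to 29.6). In endothelial cells, where Maf was at 33.5 and 34.9 CPM, the thinned share was 0 of 36 cells, which allows a share of up to 8.33%, and 3 of 66 cells (4.55%). Unthinned, it was 14.3% of isotype endothelial cells and 12.5% of anti-CD40 endothelial cells, at median depths of 3828 and 3711.5 UMIs. Other classes gave higher thinned shares, with 12.5% and 6.90% of NK cells, 12.4% and 5.91% of neutrophils and 2 of 15 anti-CD40 B cells (13.3%). The macrophage shares were above those of endothelial cells, NK cells and neutrophils in both libraries.

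Klf4, at chr4:55527137-55532475, showed the larger fold of the pair. It was at 437 CPM (418.7 to 455.8) in isotype macrophages and 106.4 CPM (102.4 to 110.5) in anti-CD40 macrophages, 4.11-fold lower (3.88 to 4.35). A Klf4 UMI was seen in 65.8% of isotype and 43.6% of anti-CD40 macrophages, and after thinning in 26.3% (22.7 to 30.1) and 9.26% (8.03 to 10.6). In NK cells, which should have little Klf4, the thinned shares were 2 of 120 cells (1.67%) and 0 of 145 cells, which allows up to 2.07%. Unthinned, they were 9.84% and 8.22% at median depths of 4941 and 7514 UMIs.

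A list of 17 genes induced by tissue dissociation, chosen after the data were seen, moved with both genes. These genes summed to 12890.7 CPM in isotype macrophages and 5347.6 CPM in anti-CD40 macrophages, and 15 of 17 were called lower (median log2 ratio -1.37). The mitochondrial share was alike, at 4.28% and 4.36%. Among macrophages with a dissociation share at or under the class median, 156 isotype and 1150 anti-CD40 cells, the Klf4 log2 ratio was -1.46 against -1.94 in all macrophages, and the Maf log2 ratio was -1.85 against -1.65. In that comparison 6 of the 17 dissociation genes were called lower. Because the same 17 genes selected the cells, that count was largely set by the selection, and nothing is drawn from it. Both members kept their call among the cells low in dissociation genes, which were 156 of 591 isotype and 1150 of 2021 anti-CD40 macrophages. The part of dissociation in either difference was not tested.

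Nr1h3, at chr2:91184061-91202829, and Batf2, at chr19:6164397-6172476, were near the limit of detection in the isotype library. Nr1h3 was at 5.08 CPM (3.29 to 7.5, from 25 UMIs) in isotype macrophages and 35.1 CPM (32.9 to 37.5, from 885 UMIs) in anti-CD40 macrophages, 6.92-fold higher (4.65 to 10.8). Its span overlaps Acp2, a lysosomal phosphatase gene, which stood at 58.5 and 86.7 CPM, and whether reads were counted by strand is not given in the sources used here. Batf2 was at 5.28 CPM (3.45 to 7.74, from 26 UMIs) and 50.3 CPM (47.5 to 53.1, from 1266 UMIs), 9.51-fold higher (6.46 to 14.6). Both genes were rare per cell even where they were higher. After thinning, Nr1h3 was seen in 3 of 582 isotype cells (0.515%) and 65 of 2009 anti-CD40 cells (3.24%), and Batf2 in 3 of 582 (0.515%) and 101 of 2009 (5.03%). Unthinned, Nr1h3 was seen in 3.38% and 22.9% of cells and Batf2 in 3.55% and 38.6%. In thinned NK cells both genes were at 0 of 120 isotype cells, which allows up to 2.5%, so the isotype macrophage shares are not above background at this depth. Among 145 thinned anti-CD40 NK cells, Nr1h3 was seen in 1 (0.690%) and Batf2 in 0, which allows up to 2.07%.

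Hif1a, at chr12:73901324-73947554, was at 48.8 CPM (42.8 to 55.4) in isotype macrophages and 79.8 CPM (76.3 to 83.3) in anti-CD40 macrophages, 1.64-fold higher (1.43 to 1.88). The call was near its threshold: it was kept in 10 of 13 alternatives and lost with the mean of per-cell CPM (log2 ratio 0.48), after thinning (0.53) and with mixed droplets added (0.48). By subset it was called in 1 of 3, as given with the subsets. Gm15283, a long non-coding gene whose span overlaps Hif1a, held 2 and 31 UMIs. Bhlhe40, at chr6:108660629-108666925, was at 16.9 CPM (13.4 to 20.9) and 17.5 CPM (15.9 to 19.2), a ratio of 1.04 (0.819 to 1.33). The overlapping 0610040F04Rik was at 0 UMIs in both libraries.

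Macrophages were divided by 3 genes of long-lived resident cells (Timd4, Lyve1 and Folr2) and by Ccr2, the receptor of cells recruited from blood. Resident macrophages held at least 2 of the 3 genes and no Ccr2 (193 isotype and 363 anti-CD40 cells), Ccr2-positive macrophages held fewer than 2 of them (101 and 928), and 272 and 601 cells were low in both. Another 25 and 129 cells passed both criteria and, with under 50 isotype cells, get levels without a ratio. Ccr2-positive cells were 101 of 591 isotype and 928 of 2021 anti-CD40 macrophages, so values over all macrophages go with a changed mix of gated subsets. Any Ccr2 UMI met the Ccr2 criterion, so this share also depends on depth, with medians of 7205 and 10825 UMIs per macrophage. Over all macrophages Ccr2 was at 251.4 and 303.7 CPM, and within the Ccr2-positive subset at 947.3 and 528.9 CPM. The part of depth in the share was not tested. Lyve1 and Folr2 themselves differed between the libraries, so the subsets are not the same population in each. In resident macrophages 2 of 7 measured members were called higher (background 6.86%) and 2 lower (background 10.7%). In Ccr2-positive macrophages 2 of 8 were higher (background 6.69%) and 3 lower (background 9.72%). In macrophages low in both, 4 of 8 were higher (background 7.94%) and 2 lower (background 10.7%). Under TMM scaling the backgrounds became 9.63% higher and 6.65% lower in resident cells, 10.7% and 5.8% in Ccr2-positive cells and 12% and 6.51% in cells low in both, with 3 and 2, 2 and 2, and 4 and 2 members called.

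Among these 3 subsets Maf was highest in resident macrophages in both libraries. The macrophages with both held 1381.6 CPM (1257.6 to 1514.6) and 444.4 CPM (420.3 to 469.5), and the isotype value overlaps that of resident cells (1416 to 1529.4). In resident macrophages Maf was at 1471.9 CPM in isotype and 561.7 CPM in anti-CD40 resident macrophages, 2.62-fold lower (2.48 to 2.77). In macrophages low in both it was at 1064.3 and 340.4 CPM, 3.13-fold lower (2.92 to 3.35). In Ccr2-positive macrophages it was at 374.3 and 231.6 CPM, 1.62-fold lower (1.46 to 1.79). The resident over Ccr2-positive ratio was 3.93 (3.55 to 4.36) in the isotype library and 2.43 (2.30 to 2.56) in the anti-CD40 library. The call in Ccr2-positive cells held in 7 of 11 alternatives and was lost, for example, under a stricter cell filter, with more genes and fewer mitochondrial UMIs required (log2 ratio -0.34 against -0.67). Whether the Maf difference itself differed between subsets was not tested.

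Among the same 3 subsets Klf4 was also highest in resident macrophages, at 571.3 and 147.2 CPM, against 386.2 and 95.7 CPM in cells low in both and 300.1 and 87.7 CPM in Ccr2-positive cells. The macrophages with both held 452.4 CPM (382.7 to 531.2) and 147.1 CPM (133.4 to 161.8), the latter overlapping the resident level. It was lower in the anti-CD40 library in each subset, by 3.88-fold (3.51 to 4.29), 4.04-fold (3.58 to 4.56) and 3.42-fold (3.03 to 3.86) in that order. Summed dissociation genes were at 11640.9 and 5674.1 CPM in resident cells, 14890.4 and 6186 CPM in cells low in both and 12219.9 and 4814 CPM in Ccr2-positive cells. Among resident macrophages low in dissociation genes the Klf4 log2 ratio was -1.13 against -1.89 in all resident macrophages.

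Nr1h3 rose to nearly the same level in every subset: 36.6 CPM in resident, 34.9 in Ccr2-positive and 36.2 in cells low in both, from 5.07, 7.67 and 4.26 CPM. Batf2 reached 57.7, 46.4 and 51.3 CPM in the same order, from 7.32, 2.56 and 4.87 CPM. Within the anti-CD40 library the resident over Ccr2-positive ratio was 1.05 (0.869 to 1.26) for Nr1h3 and 1.245 (1.07 to 1.44) for Batf2. Spi1 was 1.29, 1.28 and 1.24 times its isotype level in the 3 subsets, each under the 1.5-fold rule. It stayed under that rule in 12 of 13, 10 of 11 and 13 of 13 alternatives. The highest log2 ratios were 0.61 in resident, 0.87 in Ccr2-positive and 0.50 in cells low in both.

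**Figure D2:**
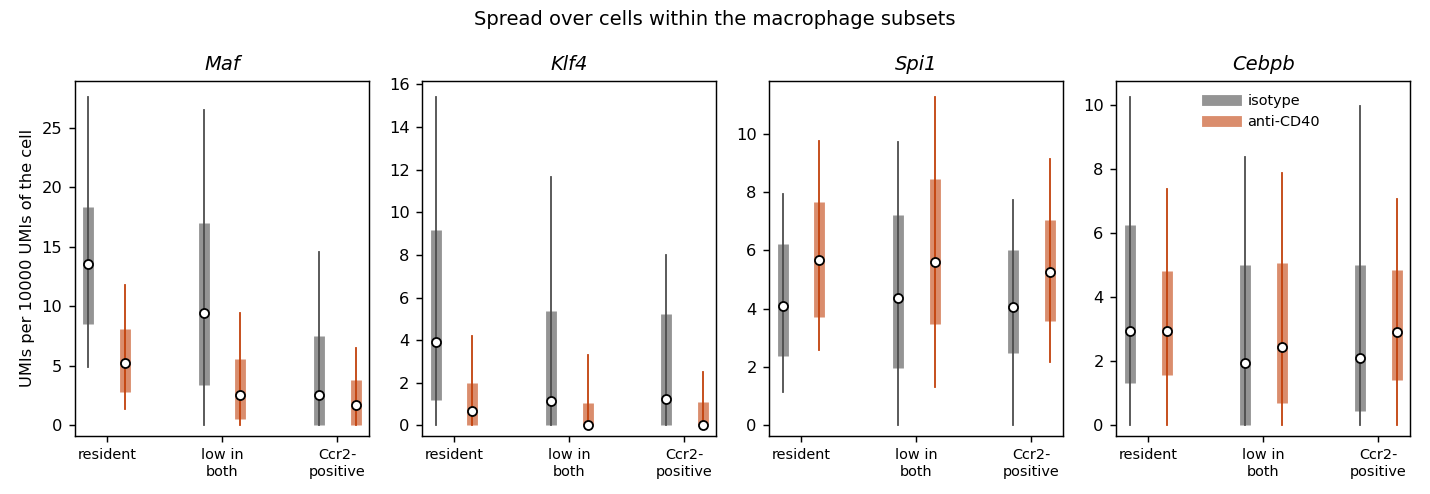
UMIs per 10000 UMIs of the cell for 4 factors in the 3 macrophage subsets, isotype in grey and anti-CD40 in orange; open circles are medians over cells, thick bars the middle 50% of cells and thin lines the 10th to 90th percentile. Maf medians fell from 13.6 to 5.21 in resident cells and from 9.44 to 2.55 in cells low in both, while Spi1 medians lay between 4.06 and 5.67 in every subset and library.

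Of the 8 members, Bhlhe40 differed by the largest fold between Ccr2-positive and resident macrophages in both libraries. In the isotype library it was at 62.2 CPM (48.8 to 78.3) in Ccr2-positive macrophages, 1.69 CPM in resident macrophages and 2.44 CPM in cells low in both. The Ccr2-positive value rested on 73 UMIs in 19 of 101 cells, and the resident value on 3 UMIs. Conventional dendritic cell markers summed to 310.4 and 170.2 CPM in isotype and anti-CD40 Ccr2-positive macrophages. They summed to 99.6 and 215.1 CPM in resident cells and 48.7 and 140.9 CPM in cells low in both. Isotype conventional dendritic cells held Bhlhe40 at 104.9 CPM, and the part of such transcripts in these values was not tested. The Ccr2-positive level was 36.9-fold that of resident cells in the isotype library (12.1 to 183) and 7.72-fold in the anti-CD40 library (4.54 to 14.3). Between the libraries it was 2.54-fold lower in Ccr2-positive cells (1.94 to 3.28), at 24.6 CPM with anti-CD40, and 5.12-fold higher in cells low in both (1.90 to 19.4), at 12.5 CPM. The lower call was lost only after thinning (log2 ratio -0.42 against -1.06), among 11 alternatives. The higher call was lost in 2 of 12, with the mean of per-cell CPM (0.56) and with mixed droplets added (0.34). Hif1a was higher in Ccr2-positive than in resident macrophages in both libraries, at 73.3 against 41.6 CPM and 89.8 against 64.7 CPM. Between the libraries Hif1a was called only in cells low in both, at 40.8 and 67.7 CPM, 1.66-fold higher (1.27 to 2.19), a call kept in 8 of 13 alternatives. The ratio was 1.55 (1.20 to 2.04) in resident cells, not called, and 1.22 (0.983 to 1.54) in Ccr2-positive cells, an interval that includes no difference.

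Classical monocytes, gated on at least 5 of 8 genes such as Ly6c2, Plac8 and Chil3, numbered 69 and 144 cells. Here 2 of 8 members were called higher (background 11.2%) and 2 lower (background 14.1%), and under TMM scaling 2 higher (background 15%) and 1 lower (background 9.79%). Klf4 was at 504.5 CPM (456.6 to 556.0) and 157.3 CPM (141.8 to 173.9), 3.21-fold lower (2.78 to 3.70). Batf2 was at 2.48 CPM, from 2 UMIs, and 51.0 CPM, from 123 UMIs, a ratio of 20.5 (5.57 to 172). Nr1h3 was at 6.21 and 29.5 CPM, 4.74-fold higher (1.94 to 15.1). Cebpb was at 1240 CPM (1164.3 to 1319.4) and 779.2 CPM (744.4 to 815.3), 1.59-fold lower (1.47 to 1.72), a call that held in 6 of 11 alternatives and was lost, for example, after thinning (log2 ratio -0.38) and under TMM scaling (-0.51). Spi1 at 602.6 and 596.3 CPM, Hif1a at 83.2 and 94.6 CPM and Bhlhe40 at 18.6 and 23.7 CPM were within 1.5-fold.

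Maf did not differ in classical monocytes beyond its counting interval, at 190.1 and 198.8 CPM, a ratio of 1.05 (0.870 to 1.26). With 1 more marker required its log2 ratio was 1.18, and with the stricter cell filter 0.80. The macrophage markers summed to 1882.4 CPM in isotype and 6691.2 CPM in anti-CD40 monocytes, while monocyte markers were at 6727.1 and 7191.2 CPM. The part of those macrophage transcripts in the monocyte values was not tested. Dissociation genes summed to 14893 and 5712.4 CPM there, and too few isotype cells (5) were low in them for a ratio.

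In neutrophils (141 and 251 cells) 0 of 5 measured members were called higher (background 11.6%) and 2 lower (background 29.8%). Those were Maf, at 153.8 and 73.0 CPM, and Klf4, at 131.5 and 42.3 CPM. All 8 macrophage markers were detected in neutrophils, summing to 1424.5 and 1396.9 CPM, and dissociation genes summed to 36600.3 and 21935 CPM. The part of either in the lower Maf and Klf4 values was not tested. In NK cells (122 and 146 cells) 0 of 6 were higher (background 9.73%) and 2 lower (background 16.3%), again Maf, at 126.1 and 77.3 CPM, and Klf4, at 43.6 and 17.5 CPM from 28 and 21 UMIs. Macrophage markers summed to 213.3 and 455.5 CPM in NK cells, and dissociation genes to 8400 and 4843.1 CPM, and the part of either in the Maf and Klf4 values was not tested. Under TMM scaling 1 member was higher (background 19.7%) and 2 lower (background 12.9%) in neutrophils, and 0 higher (background 16.1%) and 1 lower (background 9.56%) in NK cells, where the Maf call was lost. With 1 marker fewer in the gates no call on Klf4 or Maf in neutrophils (log2 ratios -0.18 and -0.25) or on Klf4 in NK cells (0.0215) remained.

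**Figure D3:**
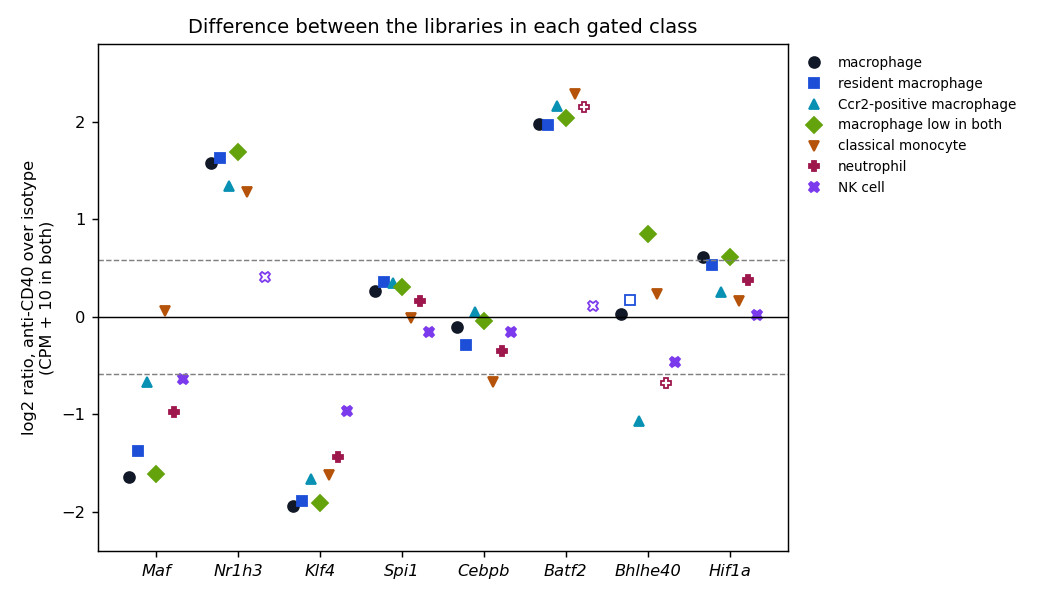
Log2 ratio of anti-CD40 over isotype, after 10 CPM was added to both, for each factor in 7 gated classes; dashed lines mark 1.5-fold and open symbols genes with under 30 UMIs, and Nr1h3 in neutrophils, at 0 UMIs in both libraries, is not drawn. Klf4 lies below the lower line in all 7 classes, whereas Maf in classical monocytes and Spi1 throughout lie between the lines.

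Across all gated classes, including those with under 50 cells in a library, for which levels are given without a ratio, the members had distinct profiles. Spi1 was highest in neutrophils, at 1023.2 CPM (931.8 to 1121.3) in the isotype library, overlapping the 913.7 CPM (803.5 to 1034.7) of the 38 cells of the nonclassical monocyte gate. Classical monocytes followed at 602.6 CPM, macrophages at 478.4, conventional dendritic cells at 402.2 and B cells at 126.9 CPM, with the 2 mature dendritic cells left aside. T cells, NK cells, endothelial cells and fibroblasts lay between 4.59 and 23.4 CPM. In the anti-CD40 library neutrophils were again highest, at 1150.8 CPM, 2.00-fold the macrophage level (1.86 to 2.13).

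Cebpb shared its highest classes with Spi1. In the isotype library it was at 2309.5 CPM in neutrophils (2171 to 2454.6) and 2170 CPM in the nonclassical gate (1998.2 to 2352.5), which overlap, then at 1240 CPM in classical monocytes and 389 CPM in macrophages. Fibroblasts followed at 197.6 CPM, and all other classes were at or under 84.2 CPM. Neutrophils stood 5.94-fold above macrophages in the isotype library (5.50 to 6.41) and 5.01-fold in the anti-CD40 library (4.74 to 5.30). In the nonclassical gate Cebpb was at 864 CPM with anti-CD40. That gate held 38 and 35 cells, and its macrophage markers summed to 4572 and 12162.1 CPM while its own markers summed to 3039.4 and 815.2 CPM, so its name rests on few transcripts.

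Maf was highest in macrophages in both libraries. The isotype level was 5.62-fold that of classical monocytes (4.78 to 6.64), and the anti-CD40 level 1.68-fold (1.53 to 1.85). Below macrophages and the nonclassical gate (261.6 CPM), T cells (215.1), classical monocytes (190.1), B cells (161.6), neutrophils (153.8) and NK cells (126.1) formed a run in which each isotype interval overlapped the next. Endothelial cells, fibroblasts and conventional dendritic cells were at 33.5, 11.5 and 6.56 CPM.

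Klf4, which also acts in vascular and connective tissue cells, was highest in endothelial cells. It was at 890.2 CPM (766.9 to 1027.8) in 42 isotype endothelial cells and 764.5 CPM (678.3 to 858.6) in 72 anti-CD40 cells, and these intervals overlap. In fibroblasts it was at 647.9 CPM (574.5 to 728.1) and 502.8 CPM (437 to 575.8), again overlapping. The nonclassical gate, at 666.8 CPM (573.2 to 771.4) in the isotype library, overlapped both endothelial cells and fibroblasts. Classical monocytes (504.5), macrophages (437), conventional dendritic cells (310.4) and B cells (169) followed. Macrophages and both monocyte gates were at 106.4 to 157.3 CPM in the anti-CD40 library.

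Batf2 also reached its highest level outside the macrophages. It was at 0 UMIs in isotype endothelial cells (3 UMIs would be 14.4 CPM) and at 225.3 CPM (179.7 to 279.0) in anti-CD40 endothelial cells, from 84 UMIs in 35 of 72 cells. After thinning, 0 of 36 isotype and 20 of 66 anti-CD40 endothelial cells (30.3%, 19.6 to 42.8) held a Batf2 UMI. Macrophage markers summed to 724.3 CPM in these anti-CD40 endothelial cells against 16153.9 CPM in macrophages, where Batf2 was at 50.3 CPM. In fibroblasts Batf2 was at 0 UMIs and 74.6 CPM (50.7 to 105.9), in the nonclassical gate at 3.68 and 70.1 CPM, and in neutrophils at 0 and 27 UMIs (34.6 CPM), which misses the minimum of 30. In anti-CD40 T cells it was at 5.73 CPM and in NK cells at 0.831 CPM, from 1 UMI. In that library endothelial cells, fibroblasts, macrophages, neutrophils and both monocyte gates lay above 30 CPM. The dendritic gates held 1 UMI each, in 6 conventional and 13 mature cells, with intervals up to 40.8 and 42.6 CPM. The 15 B cells held 0 UMIs, with an interval up to 31.8 CPM. The place of the dendritic gates and of B cells in this order is therefore not known.

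Nr1h3 was low in most classes. The nonclassical gate held 51.6 CPM in the isotype library, from 14 UMIs, and 72.2 CPM in the anti-CD40 library, from 34 UMIs, and fibroblasts held 27.6 and 24.1 CPM, from 12 and 10 UMIs. Neutrophils held 0 UMIs in both libraries, and isotype B, T and NK cells 0 each. Bhlhe40 had its highest well-sampled level in NK cells, at 258.5 CPM (220.7 to 301.0) and 184.5 CPM (161.1 to 210.5), a ratio of 0.714 that is within the 1.5-fold rule. That was 15.3-fold the macrophage level in the isotype library (11.7 to 20.2) and 10.5-fold in the anti-CD40 library (8.93 to 12.4). The 13 mature dendritic cells of the anti-CD40 library held 252.2 CPM from 33 UMIs. Hif1a was the most even member, between 28.4 CPM in conventional dendritic cells and 100.5 CPM in endothelial cells in the isotype library, and between 36.6 and 118 CPM in the same classes with anti-CD40.

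**Figure D4:**
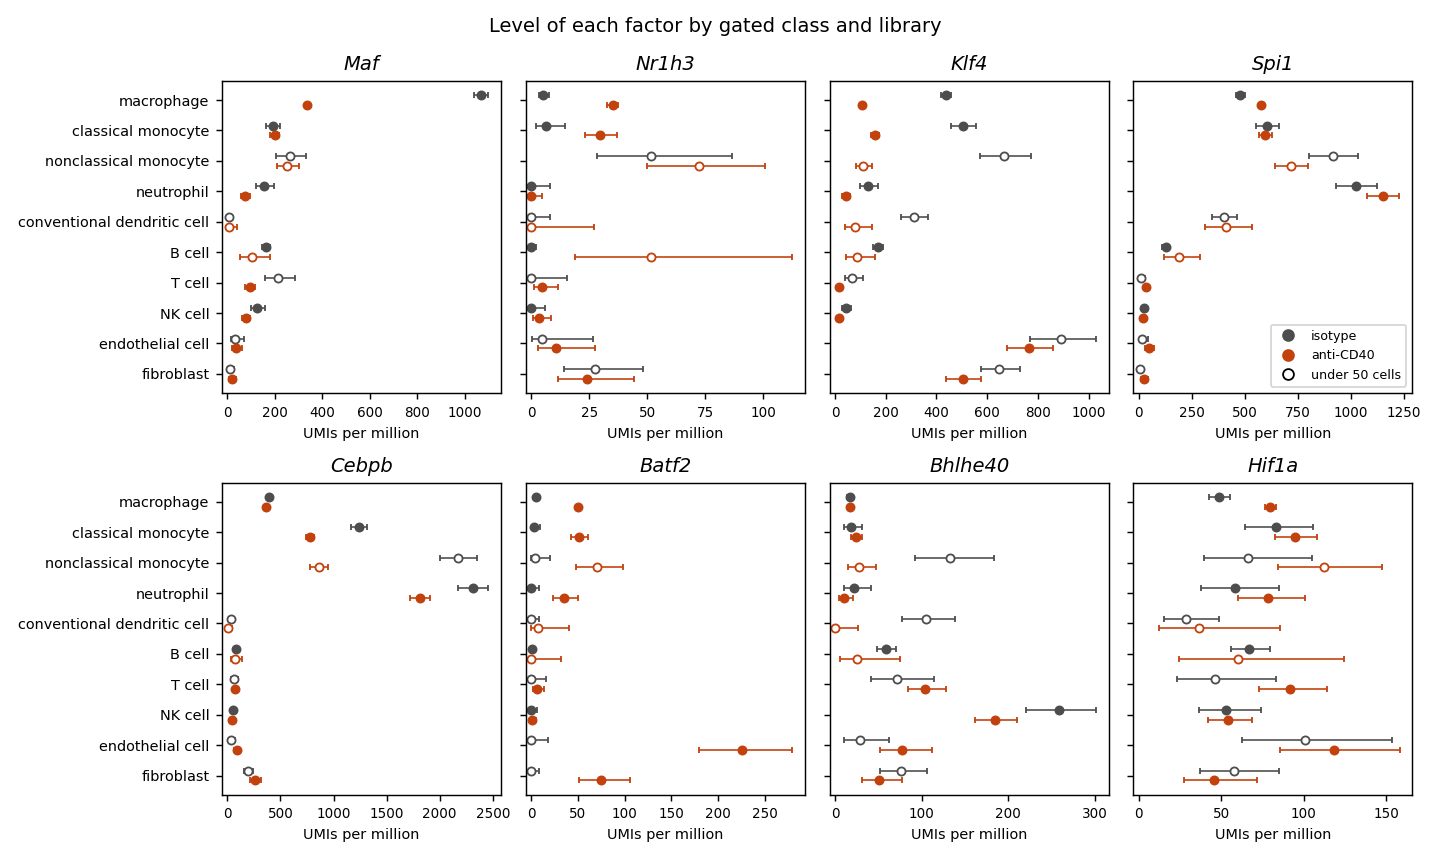
Level of each factor in CPM in 10 gated classes, isotype in grey and anti-CD40 in orange, with 95% counting intervals; open symbols are classes with under 50 cells in that library, and each panel has its own axis. Maf is highest in isotype macrophages, Spi1 and Cebpb in neutrophils, Klf4 and Batf2 in endothelial cells and Bhlhe40 in NK cells.

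The genes around the members were read from lists chosen with earlier results of these data known, and each list is described by its counts in macrophages beside the 5.32% of genes called higher, the 9.13% called lower and the median of -0.10 for all genes. Of 11 perivascular macrophage genes that go with Maf, 0 were called higher and 9 lower (median log2 ratio -2.14), a count that was 9 in all 13 alternatives. By subset, where Timd4, Lyve1 and Folr2 also set the gates, 9 of 11 were lower in resident cells (median -1.39), 7 of 11 in Ccr2-positive cells (median -1.63) and 7 of 10 in cells low in both (median -1.86). Each of these medians is nearer 0 than that over all macrophages. Il10 was called higher in resident cells, from 4 and 38 UMIs, and Timd4 in cells low in both, from 17 and 125 UMIs. The scavenger receptor gene Cd163 was at 302.8 and 40.3 CPM, 7.52-fold lower, Gas6 at 262 and 34.2 CPM, 7.66-fold lower, Igf1 at 179.9 and 24.2 CPM, 7.43-fold lower, and the chemokine gene Pf4 at 1986.6 and 369.5 CPM, 5.38-fold lower. The list's remaining pair, Timd4 at 81.9 and 79.4 CPM and Il10 at 0.813 and 4.21 CPM, was not called.

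Of 11 genes of the LXR target list with enough UMIs, 0 were called higher and 3 lower (median -0.09, or 0.15 under TMM scaling, where 2 were called higher). The list also counts the receptor gene Nr1h2, which is not a target. Apoe, which carries lipid, was at 14550.6 and 2745.5 CPM, 5.30-fold lower (5.25 to 5.36). Abca1, the cholesterol exporter, stood 4.21-fold lower (3.73 to 4.75), from 100.4 to 23.9 CPM. Mylip, which promotes degradation of the LDL receptor, stood 2.14-fold lower, from 39.8 to 18.6 CPM. These differences lay opposite to that of Nr1h3 itself. Abcg1 was at 29.3 and 41.0 CPM, Srebf1 at 12.8 and 13.1 CPM and Nr1h2, which encodes LXRβ, at 53.6 and 53.2 CPM, none of them called, and the partner gene Rxra was at 26.4 and 7.31 CPM, 3.62-fold lower.

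Of 17 HIF pathway genes, 4 were called higher and 0 lower (median 0.27), and alternatives gave 4 to 6 higher. They were the glucose transporter gene Slc2a1 at 11.8 and 32.6 CPM, 2.77-fold higher, the glycolysis genes Ldha at 196.5 and 457.1 CPM, 2.33-fold higher, and Pgk1 at 68.1 and 214.9 CPM, 3.16-fold higher, and the cytokine gene Mif at 109.7 and 344.2 CPM, 3.14-fold higher. Arnt, the HIF-1α partner, was at 35.8 and 21.5 CPM, and Vegfa at 1.63 and 1.95 CPM, neither called. Of 12 genes of BATF partners and interferon-γ responses, 4 were higher and 3 lower (median 0.43). Cxcl9, an interferon-γ chemokine, was at 2.03 CPM, from 10 UMIs, and 1633.6 CPM, Ccl5 at 47.4 and 252.4 CPM, Irf1 at 78.0 and 321.6 CPM and Irf8 at 205.3 and 392.5 CPM. The 3 lower genes were the AP-1 genes Jun, Junb and Jund, at 2244.6 and 853.5, 1112.7 and 477.4, and 1520.2 and 632.1 CPM, and Jun and Junb are also on the dissociation list. In macrophages low in dissociation genes, 0 of the 12 were called lower. Because Jun and Junb helped select those cells, their part of that result was largely set by the selection, and nothing is drawn from it.

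Lists for the lineage factors differed in how many of their genes were called. Of 10 PU.1-dependent genes, 0 were called higher and 1 lower (median -0.02), the endotoxin co-receptor gene Cd14 at 572.1 and 155.1 CPM. Tyrobp, an adaptor of activating receptors, was at 1913.9 and 1890.9 CPM. Of 6 C/EBPβ target genes with enough UMIs, of 10 in the list, 1 was higher and 2 lower (median 0.27): Il1rn at 13.4 and 42.1 CPM, Il1b at 234.1 and 97.2 CPM and Cebpd at 175.4 and 101.4 CPM. In macrophages low in dissociation genes 1 was higher and 0 lower, and under TMM scaling 2 were higher and 1 lower. Of 36 other lineage and identity factors, 1 was higher, Irf8, and 12 lower (median -0.42), a count that was 6 of 36 under TMM scaling. Klf2, a relative of Klf4 and another early-response gene, was at 1145 and 341.6 CPM, 3.35-fold lower, Mef2c at 555.2 and 165.4 CPM, 3.36-fold lower, Ets2 at 61.4 and 18.5 CPM, 3.32-fold lower, and Fli1 at 130.5 and 54.3 CPM, 2.40-fold lower.

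**Figure D5:**
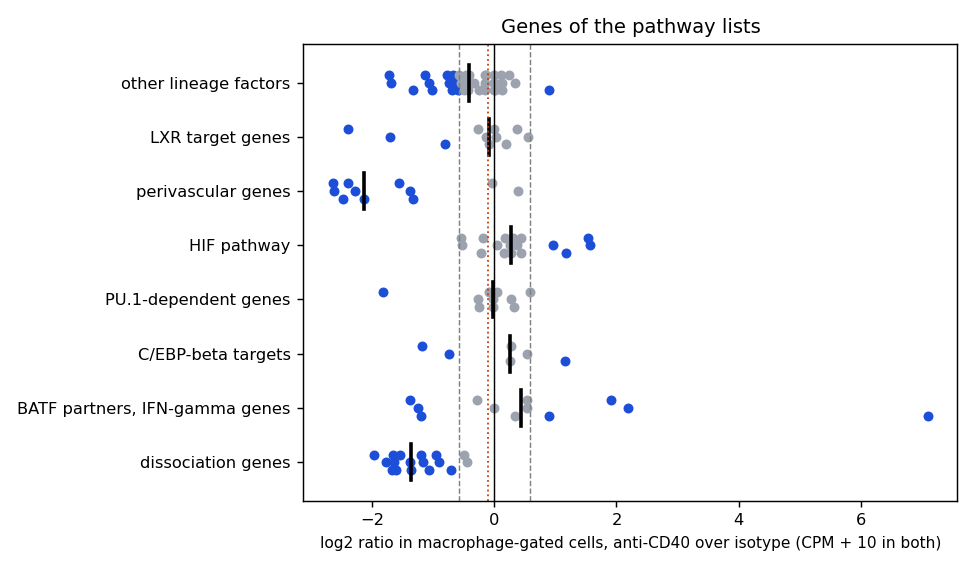
Log2 ratio of anti-CD40 over isotype in macrophage-gated cells, after 10 CPM was added to both, for the genes of 8 lists with at least 30 UMIs; blue points are past 1.5-fold (dashed lines), black bars are list medians and the dotted line is the median of all genes. Perivascular and dissociation genes lie mostly to the left, 4 HIF pathway genes to the right, and Cxcl9 is the point furthest right.

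Genes whose profile was most like each member's were taken by Pearson correlation of log2(CPM + 10) over 12 class-by-library sums with at least 50 cells, among 10982 genes. The sums share libraries and differ in depth, so the values only describe these libraries. For Maf the nearest were Taok3 (r = 0.94), Mrc1 (0.93) and Ntpcr (0.92), and for Klf4 they were Dusp3 (0.94), Evi5 (0.93) and Slc39a1 (0.92). For Spi1 they were Pirb (0.99) and Ebi3 (0.99), and for Cebpb Fgd4 (0.98), Tlr2 (0.98) and Nadk (0.97). For Batf2 they were Tapbp (0.96), Gbp3 (0.96) and Fscn1 (0.96), and for Nr1h3 Fbxo6 (0.91), Mmp14 (0.90) and Anpep (0.90). For Bhlhe40 they were Tnk2 (0.97), Riok1 (0.97) and Nfyb (0.96), and for Hif1a, with the weakest likeness, Fam241a (0.85), Noct (0.84) and Adar (0.81).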

How the data were processed

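The authors deposited unnormalized UMI counts for each gene and antibody tag of every barcode. They come from Cell Ranger 6.0.1 per the file headers, whereas Cell Ranger 3, Seurat 3 and the builds mm10 and GRCh38 are named, without roles, in the submitters' processing notes. The chemistry was 10x Genomics 5′, per the labels. The 198 antibody tags were not used here. Cells needed 200 genes or more and a mitochondrial share under 10%. Each of 11 classes required most of its marker list, monocyte gates took precedence over the macrophage gate, and droplets passing unrelated gates were left out as mixed (536 isotype and 630 anti-CD40); no doublet caller was run. UMIs were summed per class and library and scaled to CPM. Intervals were exact (Poisson for levels, conditional binomial for ratios, Clopper-Pearson for shares; scipy 1.17.1), at 95%, and cover counting error only; a count of 0 was given a limit of 3 counts. The ratio method was tested on simulated data. Log2 ratios added a prior of 10 CPM, and ratios needed 50 cells in each library. TMM factors came from edgeR 4.0.16, used only for scaling. The members, gene lists and rules were chosen with earlier results of these data known, and the dissociation list was added after the data were seen. From each list, genes past 1.5-fold were named, at most 4 in each direction by size; others named were chosen after their values were seen. Gene positions and promoters are from RefSeq, GRCm38.p6. Some genes that these rules would name are not reported here.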

Additional observations from a re-analysis of the deposited data

Results flagged for a closer look

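Bhlhe40 moved in opposite directions in different macrophage subsets. Its log2 ratio of anti-CD40 over isotype was 0.85 in macrophages low in both resident markers and Ccr2, where the isotype level rested on 4 UMIs, and -1.06 in Ccr2-positive macrophages, where it rested on 73 UMIs in 19 cells. The difference between the subsets was not tested, since each has 1 library a group. Cells low in both had median depths of 6010.5 and 6998 UMIs, against 9668 and 13044 in Ccr2-positive cells. A cell whose Ccr2 transcript was missed can fall among the cells low in both. Classical monocyte markers summed there to 26.8 and 103.7 CPM. The part of such cells in the Bhlhe40 values was not tested.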

How the results depend on the processing

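The counts of members called in macrophages, 3 higher and 2 lower, stayed at 2 to 3 higher and 2 lower in every alternative: TMM and median-of-ratios scaling, a prior of 1 CPM, the mean of per-cell CPM, thinning to 1000 UMIs, a stricter and a looser cell filter, 1 marker more or fewer, mixed droplets added, a gate without C1q genes, a lower and a higher fold, no minimum of UMIs, and 2 alternatives chosen after seeing the data (cells low in dissociation genes, and cells low in B cell and neutrophil markers). The macrophage log2 ratios ranged from -1.85 to -1.36 for Maf, -2.03 to -1.46 for Klf4, 1.23 to 2.57 for Nr1h3 and 1.90 to 3.03 for Batf2. Klf4 in NK cells changed sign with 1 marker fewer, to 0.0215, and the cause was not tested. Its calls in NK cells held in 8 of 11 alternatives, and those of Maf there in 8 of 12. The low-dissociation alternative could not be given for classical monocytes, neutrophils, NK cells and Ccr2-positive macrophages, nor the low B cell and neutrophil marker alternative for classical monocytes and Ccr2-positive macrophages, because under 50 cells remained in a library. No paired analysis was possible because each group is 1 library. Depth limited Nr1h3 and Batf2 in the isotype library, at 25 and 26 macrophage UMIs.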

Other observations

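Droplets that passed the macrophage gate together with an unrelated gate, 494 isotype and 570 anti-CD40, were left out of the classes. Their Maf level was 830.6 CPM in the isotype library and 333.2 CPM in the anti-CD40 library, and their Klf4 level was 426.8 and 142.5 CPM. Batf2 was at 4.63 and 56.7 CPM in them and Nr1h3 at 4.63 and 25.8 CPM. Their median depths, 17074.5 and 20792 UMIs, were above the 7205 and 10825 UMIs of macrophage-gated cells.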
